A study of Homo sapiens with 6 samples.

Results

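NF-kB genes, cytokines and chemokines were examined in A549, a human lung cancer cell line, after MYEOV was lowered by RNA interference. The set holds 36 gene symbols: the NF-kB subunits, the kinases and receptors above them, inhibitors and feedback genes, and the cytokines, chemokines and other targets that epithelial cells make. Members were the rows of the deposited table that the platform annotation gives one of these symbols, which was the case for 19 of the 36 symbols, out of 14884 genes with a named row. The other 17 symbols were not analysed here. They are CXCL1, IL6, IL1A, IL1B, CSF2, TNFAIP3, TNFAIP2, NFKBIA, NFKBIE, BIRC3, SOD2, IL6ST, IL1R1, TNFRSF1A, TRAF2, IKBKB and IKBKG. The inhibitors and feedback genes therefore have no member with a named row, and the kinases and receptors have 1 of 7. Rows without a symbol were not searched for them.

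Cells in DMEM with fetal bovine serum had received siMYEOV #1, siMYEOV #2 or siNC, named siRNA 1, siRNA 2 and control siRNA below, by lipid transfection. Each group had 2 arrays of total RNA taken 48 hours later. All 3 groups share the cell line, the transfection reagent and the time, and the labels name no untransfected cells and no added cytokine. The values are log2 signals of whole-transcript arrays, so a difference of 1 is a doubling, and n = 2 arrays per group throughout. Whether a group's arrays are separate transfections is not given in the labels, and p-values therefore describe how far these arrays scatter, and that scatter may be technical. In RNA from whole cultures, fewer cells that express a gene and less RNA per cell cannot be told apart.

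NF-kB is a family of dimeric transcription factors kept in the cytoplasm by inhibitor proteins. Signals from cytokine receptors activate the IKK kinase complex, which marks the inhibitors for destruction and frees the dimers to enter the nucleus. There they turn on chemokines that draw neutrophils and monocytes, cytokines, adhesion molecules and their own inhibitors. Lung cancer cells in culture can make several of these products without added stimulus.

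MYEOV, the targeted gene, was measured at 5.34 and 5.19 with siRNA 1, at 5.23 and 4.70 with siRNA 2 and at 6.20 and 6.50 with control siRNA. All 4 arrays of the MYEOV siRNAs were below both control arrays. The lowest array median was 4.08 and the highest 4.103, and any pair of arrays correlated at 0.981 to 0.994 across the 7442 genes tested. Of 10 epithelial and A549 marker genes 5 had a named row, and all 5 passed the filter on dim genes. For 3 of the 5, the epithelial keratins KRT7, KRT18 and KRT19, both siRNA 2 arrays were the lowest of the 6. KRT7 was at 8.20 and 8.15 with siRNA 1, at 7.97 and 7.97 with siRNA 2 and at 8.22 and 8.20 with control siRNA. KRT18 was at 11.98 and 12.09 with siRNA 1, at 11.79 and 11.92 with siRNA 2 and at 12.07 and 12.06 with control siRNA. KRT19 was at 5.74 and 5.57 with siRNA 1, at 5.30 and 5.46 with siRNA 2 and at 5.75 and 5.50 with control siRNA. The keratin KRT8 had group means of 6.80 with siRNA 1, 6.61 with siRNA 2 and 6.94 with control siRNA, and EPCAM, an epithelial adhesion molecule, had 7.21 with siRNA 1, 7.24 with siRNA 2 and 7.01 with control siRNA. Summed on the linear scale, of which KRT18 is most, the 5 markers gave 4637 and 4944 with siRNA 1, 4084 and 4427 with siRNA 2 and 4888 and 4865 with control siRNA. The part of this in the results below was not tested. Of the leukocyte, fibroblast and endothelial markers 6 of 12 had a named row, and 1 passed, CD68, a lysosomal protein that is not limited to macrophages.

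Genes were tested with limma over all 6 arrays when their mean signal reached 5.45, which is the median over genes with a named row. The threshold for a call was an adjusted p under 0.05 (Benjamini-Hochberg, 7442 genes). Of the 19 members 14 passed the filter and 5 were dimmer (CXCL3, CCL20, TNF, IL32 and ICAM1).

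The promoters of the 2 members that were called, REL and CXCL8, are shown beside that of CXCL5. CXCL5 is a chemokine of the same gene cluster as CXCL8 and was not called. Each promoter holds letters that match a form of the kappa B element, the type of sequence that NF-kB binds. Each runs from 250 bases before to 50 bases after the gene's start, on the gene's own strand, from RefSeq on GRCh38.p14. CXCL8 is at chr4:73740319-73740618 on the plus strand, REL at chr2:60881324-60881623 on the plus strand and CXCL5 at chr4:73998628-73998927 on the minus strand. Capitals mark matches on either strand to GGNNTTTCC, a form of the kappa B element, or to TGANTCA, the AP-1 element.
CXCL8: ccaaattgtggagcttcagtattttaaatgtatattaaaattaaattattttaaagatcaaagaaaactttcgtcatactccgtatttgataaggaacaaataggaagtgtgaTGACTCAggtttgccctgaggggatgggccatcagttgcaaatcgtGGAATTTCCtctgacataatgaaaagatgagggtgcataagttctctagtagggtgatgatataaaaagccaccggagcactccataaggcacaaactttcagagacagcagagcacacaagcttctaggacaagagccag
REL: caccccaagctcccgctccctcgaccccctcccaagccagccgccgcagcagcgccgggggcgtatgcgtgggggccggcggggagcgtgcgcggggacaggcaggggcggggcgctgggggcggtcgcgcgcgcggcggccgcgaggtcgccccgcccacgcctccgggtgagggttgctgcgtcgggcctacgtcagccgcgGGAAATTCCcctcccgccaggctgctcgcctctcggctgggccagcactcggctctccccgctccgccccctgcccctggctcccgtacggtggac
CXCL5: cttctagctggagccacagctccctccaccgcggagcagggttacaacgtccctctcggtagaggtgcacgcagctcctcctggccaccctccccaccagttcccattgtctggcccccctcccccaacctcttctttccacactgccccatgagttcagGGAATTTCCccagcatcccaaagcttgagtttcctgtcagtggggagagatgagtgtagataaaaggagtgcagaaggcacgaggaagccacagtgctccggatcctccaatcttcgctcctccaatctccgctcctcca

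In CXCL8 the kappa B match began 91 bases before the start and the AP-1 match 137 bases before it, and the 2 matches did not overlap. The kappa B match began 90 bases before the start in CXCL5 and 46 bases before it in REL, where it lies on the opposite strand. The promoter table held 15 of the 19 member genes, 4 of them with several promoters, and 10 of the 15 had the kappa B letters in at least 1 promoter: CXCL2, CXCL3, CXCL5, CXCL8, CCL20, NFKB1, NFKB2, REL, IL32 and ICAM1. Among all 27305 genes with a promoter there, 7.61% had them in at least 1 promoter. Counted by promoter, 11 of the 20 member promoters had them, and 6.26% of all 35116. The AP-1 letters were found in CXCL8 alone of the 15, against 9.37% of all genes and 7.71% of all promoters. The motifs were chosen after these promoters had been read, so the shares are a description and no test. A match describes letters, not binding. CXCL2 and CXCL5, which were not called, hold the kappa B letters as REL and CXCL8 do.

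REL, the subunit c-Rel, fell with siRNA 2, and 4 subunits were not called in any comparison. REL was at 8.53 and 8.38 with siRNA 1, at 8.02 and 7.82 with siRNA 2 and at 8.48 and 8.38 with control siRNA. Both siRNA 2 arrays were below the 4 other arrays, while the siRNA 1 and control arrays overlapped. Against control, REL had a log2 change of -0.51 with siRNA 2 (95% interval -0.73 to -0.28, limma, Benjamini-Hochberg adjusted p = 0.0260), which leaves the signal at 0.704 of control. With siRNA 1 the log2 change was 0.02 (interval -0.20 to 0.25, limma adjusted p = 0.921). The difference between the siRNAs themselves was 0.53 (interval 0.30 to 0.76, limma adjusted p = 0.0180), with siRNA 1 higher. Of the 5 epithelial markers, KRT7, KRT18 and KRT19 were also lowest on both siRNA 2 arrays, while KRT8 and EPCAM were not. The part of this in the change of REL was not tested. The call of REL with siRNA 2 was lost when all genes were tested (limma adjusted p = 0.159), and without control replicate 1 (0.129), control replicate 2 (0.0803) or siRNA 2 replicate 2 (0.128). The difference between the siRNAs was lost in the same way with all genes tested (0.110), and without siRNA 1 replicate 1 (0.109), siRNA 1 replicate 2 (0.0578) or siRNA 2 replicate 2 (0.0854).

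RELB, the subunit of the alternative pathway, was at 7.03 and 6.79 with siRNA 1, at 6.61 and 6.33 with siRNA 2 and at 6.74 and 6.76 with control siRNA. The 3 groups did not overlap, with siRNA 1 above control and siRNA 2 below it. RELB was 0.44 higher with siRNA 1 than with siRNA 2 (interval 0.16 to 0.71, limma adjusted p = 0.0646) and had log2 changes of 0.16 and -0.28 against control (limma adjusted p = 0.525 and 0.224), none of which passed the threshold. The trend and robust prior called the difference between the siRNAs (limma adjusted p = 0.0448). The precursor of the partner of RELB, NFKB2, was at 8.64 and 8.37 with siRNA 1, at 8.43 and 8.03 with siRNA 2 and at 8.60 and 8.35 with control siRNA. All 3 groups of NFKB2 overlapped, and its log2 change with siRNA 2 was -0.25 (interval -0.62 to 0.12, limma adjusted p = 0.426).

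NFKB1 makes the partner of RELA in the classical dimer. It was at 8.71 and 8.48 with siRNA 1, at 8.68 and 8.28 with siRNA 2 and at 8.74 and 8.61 with control siRNA. RELA, the main activating subunit, was at 8.83 and 8.84 with siRNA 1, at 8.79 and 8.74 with siRNA 2 and at 8.93 and 8.82 with control siRNA. The NFKB1 arrays overlapped throughout, and for RELA the siRNA 2 arrays were below the control arrays by a small margin. The 95% intervals held the log2 change of RELA between -0.20 and 0.13 with siRNA 1 and between -0.27 and 0.06 with siRNA 2, and that of NFKB1 between -0.41 and 0.26 with siRNA 1 and between -0.53 and 0.14 with siRNA 2. CHUK, the kinase IKK-alpha and the 1 gene of the IKK complex and receptors with a named row, was at 8.24 and 8.24 with siRNA 1, at 8.12 and 7.91 with siRNA 2 and at 8.17 and 8.14 with control siRNA. Its difference between the siRNAs was 0.22 (interval 0.02 to 0.42, limma adjusted p = 0.166), which was not called.

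**Figure D1:**
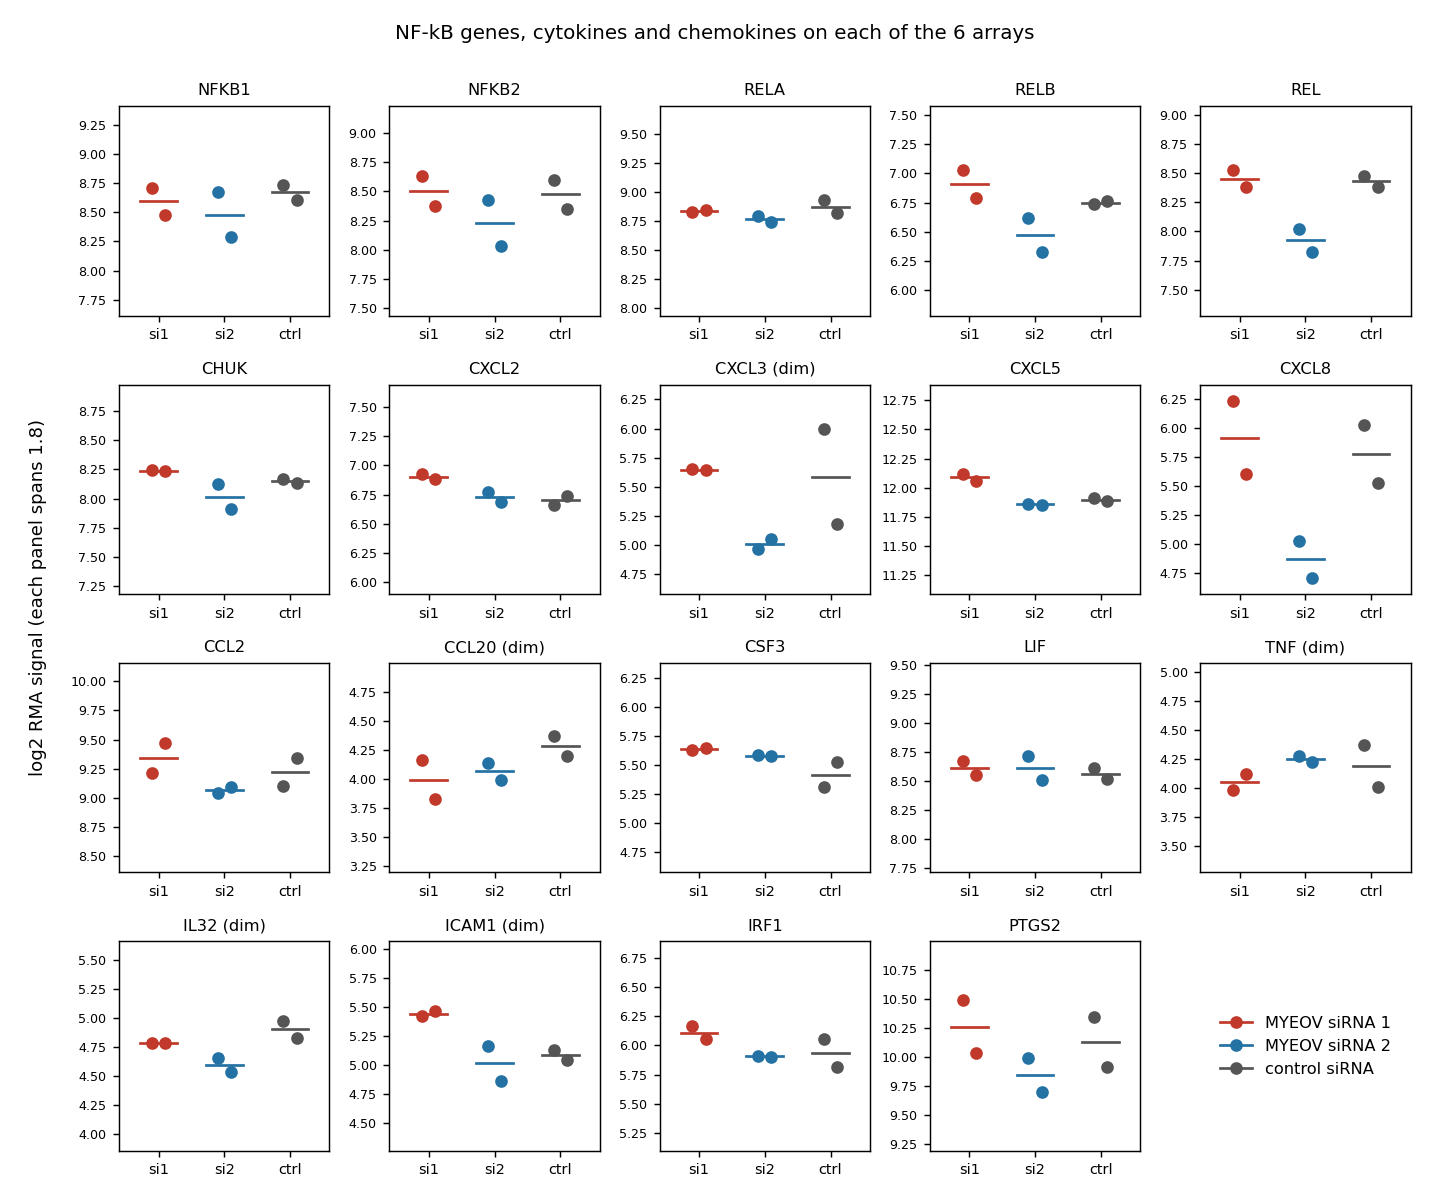
Signal of the 19 members on each array, on the log2 RMA scale, with 1 panel per gene. Points are single arrays (MYEOV siRNA 1, MYEOV siRNA 2 and control siRNA from left to right), bars are group means of 2 arrays, and each panel spans the same range. Both siRNA 2 arrays of REL and of CXCL8 lie below the other 4 arrays. The same holds for RELA, RELB, CHUK, CXCL5, CCL2, CXCL3 and IL32.

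CXCL8, the neutrophil chemokine also known as interleukin 8, was lower with siRNA 2 than with siRNA 1. It was at 6.23 and 5.60 with siRNA 1, at 5.03 and 4.71 with siRNA 2 and at 6.02 and 5.53 with control siRNA. Both siRNA 2 arrays were below all others, and the arrays of siRNA 1 and control, which overlapped, differed among themselves by 0.63 and 0.49. The mean of CXCL8 over all arrays was 5.52, near the filter of 5.45. Both siRNA 2 arrays were below that filter, so CXCL8 was tested only because of its siRNA 1 and control arrays. The difference between the siRNAs was 1.04 (interval 0.48 to 1.61, limma adjusted p = 0.0395), a 2.06-fold higher signal with siRNA 1. Against control, CXCL8 had a log2 change of -0.90 with siRNA 2 (interval -1.47 to -0.34, limma adjusted p = 0.0723) and of 0.14 with siRNA 1 (interval -0.42 to 0.70, limma adjusted p = 0.806), neither of which was called. The trend and robust prior called CXCL8 with siRNA 2 against control (limma adjusted p = 0.0389). The call between the siRNAs was lost with all genes tested (limma adjusted p = 0.164) and without siRNA 1 replicate 1 (0.159), siRNA 2 replicate 1 (0.0784) or siRNA 2 replicate 2 (0.156). The difference was then 1.04, 0.73, 1.204 and 0.88.

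The CXC chemokine genes CXCL8, CXCL5, CXCL3 and CXCL2 lie in this order in 1 cluster on chromosome 4, where CXCL8 stands at 1 end of 9 protein-coding genes and CXCL2 at the other. CXCL5, a neutrophil chemokine, was at 12.12 and 12.06 with siRNA 1, at 11.86 and 11.85 with siRNA 2 and at 11.91 and 11.88 with control siRNA. Its siRNA 1 arrays were above the other 4, by a difference of 0.19 against control (interval 0.04 to 0.35, limma adjusted p = 0.169) and of 0.23 against siRNA 2 (interval 0.08 to 0.39, limma adjusted p = 0.0792). The trend and robust prior called both differences of CXCL5 (limma adjusted p = 0.0323 and 0.00817). CXCL2 was at 6.93 and 6.88 with siRNA 1, at 6.77 and 6.68 with siRNA 2 and at 6.66 and 6.74 with control siRNA. As for CXCL5, both siRNA 1 arrays of CXCL2 were above the rest, with a change of 0.20 against control (interval 0.03 to 0.37, limma adjusted p = 0.180). CXCL3 was dim, at 5.65 and 5.65 with siRNA 1, at 4.96 and 5.05 with siRNA 2 and at 5.99 and 5.18 with control siRNA. The siRNA 2 arrays of CXCL3 were the lowest of the 6, and the control arrays differed from each other by more than the siRNA groups did. With all genes tested, its siRNA difference was 0.64 (interval 0.03 to 1.25, limma adjusted p = 0.341). CXCL2 and CXCL3 are close copies of each other and of CXCL1, so their probes may read each other's transcripts and both are uncertain.

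Of the CC chemokines, CCL2, which draws monocytes, was at 9.21 and 9.47 with siRNA 1, at 9.04 and 9.09 with siRNA 2 and at 9.10 and 9.34 with control siRNA. Its siRNA 2 arrays were below all others, with a difference between the siRNAs of 0.28 (interval 0.01 to 0.55, limma adjusted p = 0.198). CCL20, which draws dendritic cells and T cells, was dim, at 4.16 and 3.82 with siRNA 1, at 4.13 and 3.99 with siRNA 2 and at 4.37 and 4.20 with control siRNA. All 4 arrays of the MYEOV siRNAs were below the control arrays, by 0.25 on average when all genes were tested (log2 change -0.25, interval -0.55 to 0.05, not called by limma).

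Among cytokines, CSF3, the granulocyte growth factor G-CSF, was the member whose 4 arrays with a MYEOV siRNA all lay above both control arrays. It was at 5.63 and 5.64 with siRNA 1, at 5.59 and 5.58 with siRNA 2 and at 5.31 and 5.52 with control siRNA. The mean change of both siRNAs was 0.19 (interval 0.02 to 0.37, limma adjusted p = 0.201). Without control replicate 1, the lower control array, the mean change of CSF3 was 0.086. LIF, a cytokine that signals through gp130, was at 8.67 and 8.55 with siRNA 1, at 8.71 and 8.51 with siRNA 2 and at 8.61 and 8.52 with control siRNA. The groups of LIF overlapped, and the interval of its siRNA difference was -0.22 to 0.22.

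TNF and IL32 were dim. IL32, an inflammatory cytokine, was at 4.78 and 4.79 with siRNA 1, at 4.66 and 4.54 with siRNA 2 and at 4.97 and 4.82 with control siRNA. Its siRNA 2 arrays were the lowest of the 6 and both control arrays the highest, with a log2 change of -0.30 with siRNA 2 when all genes were tested (interval -0.54 to -0.07, limma adjusted p = 0.287). TNF, a cytokine that activates NF-kB, had 8 rows, with values from 3.56 to 4.37 over rows and arrays. All rows but the dimmest held the same values on every array, so these are not 8 separate measurements. Relative to control, these rows differed by -0.22 to -0.14 with siRNA 1 and by 0.06 to 0.23 with siRNA 2. On the brightest of them TNF was at 3.98 and 4.12 with siRNA 1, at 4.28 and 4.22 with siRNA 2 and at 4.37 and 4.01 with control siRNA. The control arrays of this row span those of siRNA 2, so the direction against control is not larger than their spread.

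Of the other NF-kB target genes, PTGS2, the prostaglandin-making enzyme COX-2, was at 10.49 and 10.04 with siRNA 1, at 9.99 and 9.70 with siRNA 2 and at 10.35 and 9.91 with control siRNA. Its siRNA 1 arrays were above the siRNA 2 arrays by a small margin, with a difference of 0.42 (interval -0.04 to 0.87, limma adjusted p = 0.254). ICAM1, an adhesion molecule for leukocytes, was dim, at 5.42 and 5.46 with siRNA 1, at 5.17 and 4.86 with siRNA 2 and at 5.13 and 5.04 with control siRNA. Both siRNA 1 arrays of ICAM1 were above the other 4, with changes of 0.35 against control (interval 0.06 to 0.65, limma adjusted p = 0.354) and 0.43 against siRNA 2 (interval 0.13 to 0.72, limma adjusted p = 0.214) when all genes were tested. IRF1, a transcription factor also induced by interferon, was at 6.17 and 6.05 with siRNA 1, at 5.91 and 5.90 with siRNA 2 and at 6.06 and 5.82 with control siRNA. IRF1 overlapped with control in both siRNA groups, and its siRNA difference was 0.20 (interval -0.02 to 0.43, limma adjusted p = 0.253).

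**Figure D2:**
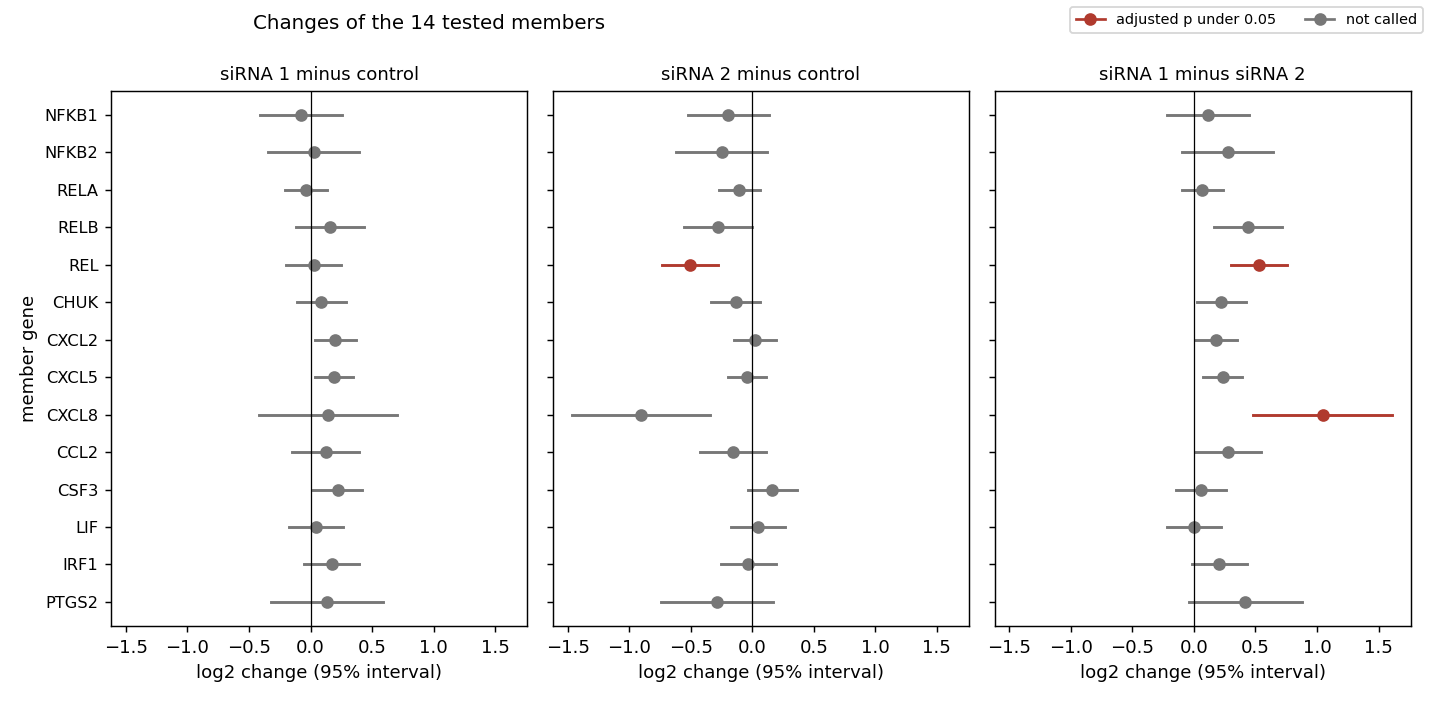
Log2 change of the 14 tested members in the 3 comparisons named above the panels, with 95% limma intervals on the horizontal axis and genes on the vertical axis. REL is called with siRNA 2 and between the siRNAs, and CXCL8 between the siRNAs, where its difference is 1.04.

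Counted over the 14 tested members, siRNA 1 against control had 0 called, against 4.66% of all tested genes (2.28% higher and 2.38% lower), and 3 at an unadjusted limma p under 0.05, against 19.2%. With siRNA 2 against control 1 member was called, REL, which was lower, against 6.83% of all genes (2.59% higher and 4.23% lower). At an unadjusted limma p under 0.05 there were 3 members with siRNA 2, against 22.2% of all genes. The mean of both siRNAs against control had 0 members called, against 5.42% of all genes (2.55% higher and 2.86% lower), and 2 at an unadjusted limma p under 0.05, against 20.4%. Between siRNA 1 and siRNA 2 there were 2 members called, REL and CXCL8, both higher with siRNA 1, against 9.15% of all genes (5.37% higher and 3.78% lower). Another 5 members made 7 in all at an unadjusted limma p under 0.05, against 23.6% of all genes. Counts of 0 to 2 called among 14 members are close to these backgrounds. CSF3, tested only because of its siRNA arrays, is in the unadjusted counts with siRNA 1 and for the mean of both siRNAs.

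The signs of the changes were uneven, whatever their size. Between siRNA 1 and siRNA 2, 13 of the 14 members were higher with siRNA 1, and 1 lower, against 49.9% higher and 50.1% lower among all tested genes, with a median difference of 0.23 among members and of -0.00 among all genes. In 11 of the 14 both siRNA 1 arrays were above both siRNA 2 arrays, against 27.1% of all genes, and in 0 both were below, against 27.5%. Set against the same 2 control arrays, 12 of 14 members were above control with siRNA 1 and 2 below (background 49.2% and 50.8%, member median 0.13), while with siRNA 2 it was 3 above and 11 below (background 50.2% and 49.8%, member median -0.15). In 5 of 14 both siRNA 1 arrays were above both control arrays (background 24.4%) and in 0 below them (background 24.4%). In 1 of 14 both siRNA 2 arrays were above both control arrays and in 7 below them (background 25.0% and 25.6%). For the mean of both siRNAs 5 members were above control and 9 below (background 47.8% and 52.2%). All 4 arrays were above both control arrays for 1 tested member, CSF3, and below them for 0 (background 12.0% and 10.9%). CSF3, tested only because of its siRNA arrays, is also in the counts above control with siRNA 1 and with siRNA 2. Of the dim members, CCL20 and IL32 had all 4 siRNA arrays below both control arrays. Among the 14 tested members, only LIF did not have a higher mean with siRNA 1 than with siRNA 2. The 5 dim members are outside these counts. Between the siRNAs, with all genes tested, CXCL3 (0.64), IL32 (0.19) and ICAM1 (0.43) were higher with siRNA 1. CCL20 (-0.07) and TNF (-0.20) were lower. Against control with siRNA 1, CXCL3 (0.06) and ICAM1 (0.35) were above 0, and CCL20 (-0.29), TNF (-0.14) and IL32 (-0.11) below. With siRNA 2, TNF (0.06) was above 0, and CXCL3 (-0.58), CCL20 (-0.22), IL32 (-0.30) and ICAM1 (-0.07) below.

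Members also differed between arrays of the same group. The median gap between the 2 arrays of a group was 0.14 for members with siRNA 1, 0.20 with siRNA 2 and 0.12 with control siRNA, against 0.084, 0.088 and 0.098 for all tested genes. In each group most members were higher on the array numbered 1, which held for 11 of 14 with siRNA 1, 13 of 14 with siRNA 2 and 10 of 14 with control siRNA, against 54.0%, 49.6% and 48.5% of all genes. The members thus moved together within groups as well as between them, and 14 genes are not 14 separate observations. The part of this shared movement in the differences between groups was not tested.

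Wider lists of the pathway held 117 further genes, of which 86 had a named row and 61 passed the filter. Among 31 tested pathway parts (adaptors, kinases and ubiquitin enzymes), 2 were lower and 0 higher with siRNA 1, 0 lower and 1 higher with siRNA 2, and 1 lower and 0 higher with siRNA 1 than with siRNA 2. Among all tested genes the shares were 2.38% lower and 2.28% higher with siRNA 1, 4.23% and 2.59% with siRNA 2, and 3.78% and 5.37% between the siRNAs. Whatever the size, 15 of the 31 were above 0 and 16 below between the siRNAs (background 49.9% and 50.1%). MAP3K7, the kinase TAK1 that activates the IKK complex, fell with siRNA 1. It was at 8.39 and 8.30 with siRNA 1, at 8.71 and 8.73 with siRNA 2 and at 8.64 and 8.71 with control siRNA, with a log2 change of -0.33 against control (interval -0.50 to -0.17, limma adjusted p = 0.0470) and of -0.38 against siRNA 2 (limma adjusted p = 0.0201). Both siRNA 1 arrays of MAP3K7 were below the other 4. ITCH, a ubiquitin ligase that works with the feedback protein A20, was at 9.94 and 9.75 with siRNA 1, at 9.94 and 9.95 with siRNA 2 and at 10.28 and 10.20 with control siRNA. It fell with siRNA 1, at -0.39 (limma adjusted p = 0.0472), and for the mean of both siRNAs, at -0.35 (limma adjusted p = 0.0397), and had -0.30 with siRNA 2 (limma adjusted p = 0.0821). USP15, a deubiquitinase, rose with siRNA 2, by 0.47 (limma adjusted p = 0.0131), and for the mean, by 0.35 (limma adjusted p = 0.0259), with 8.06 and 7.92 with siRNA 1, 8.22 and 8.22 with siRNA 2 and 7.78 and 7.73 with control siRNA. These calls were lost with all genes tested and with some single arrays left out. Those of MAP3K7 and ITCH with siRNA 1 against control were lost whichever array was left out. Array quality weights also lost MAP3K7 and ITCH with siRNA 1 against control (limma adjusted p = 0.0526 and 0.0546) and ITCH for the mean (0.0547). Fitting only the arrays compared lost MAP3K7 and ITCH with siRNA 1 (0.0824 and 0.0787), and over the alternatives the limma adjusted p reached 0.235 and 0.132 for MAP3K7, 0.224 and 0.203 for ITCH, and 0.110 and 0.172 for USP15, in the order of comparisons given.

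Among 19 tested further NF-kB targets, 1 was lower with siRNA 1, 0 were called with siRNA 2, and 1 was higher with siRNA 1 than with siRNA 2. The shares called in either direction among all tested genes were 4.66%, 6.83% and 9.15% in these comparisons. IFNGR2, a chain of the interferon gamma receptor, fell with siRNA 1, at -0.48 (interval -0.64 to -0.31, limma adjusted p = 0.0158), and for the mean of both siRNAs, at -0.37 (limma adjusted p = 0.0201). It was at 6.43 and 6.32 with siRNA 1, at 6.62 and 6.57 with siRNA 2 and at 6.86 and 6.84 with control siRNA, so that both siRNA groups were below control. C3, the central complement protein, was higher with siRNA 1 than with siRNA 2 by 0.51 (interval 0.22 to 0.80, limma adjusted p = 0.0460), with 8.44 and 8.62 with siRNA 1, 7.85 and 8.19 with siRNA 2 and 8.16 and 8.20 with control siRNA. Of these 19 genes 11 were above 0 and 8 below it between the siRNAs, whatever the size (background 49.9% and 50.1%), with a median difference of 0.10. Against control, 10 were above 0 and 9 below with siRNA 1 (background 49.2% and 50.8%). With siRNA 2 it was 5 above and 14 below (background 50.2% and 49.8%). The calls were lost with all genes tested and with some, not all, of the single arrays left out. That of C3 was also lost with quantile normalization (limma adjusted p = 0.0512) and with only the arrays compared (0.0773). Without siRNA 2 replicate 1 the difference of C3 was 0.34. Over the alternatives the limma adjusted p reached 0.135 and 0.156 for IFNGR2 and 0.215 for C3.

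Among 11 tested cytokine receptors and gp130 signalling genes, 0 were called with siRNA 1, 2 were lower with siRNA 2, and 1 was higher and 1 lower with siRNA 1 than with siRNA 2. Among all tested genes 4.66% were called with siRNA 1, 4.23% were lower with siRNA 2, and 5.37% were higher and 3.78% lower between the siRNAs. Whatever the size, 9 of the 11 were above 0 and 2 below between the siRNAs (background 49.9% and 50.1%), with a median difference of 0.09. LIFR, the receptor chain that binds LIF beside gp130, fell with siRNA 2, at -0.53 (interval -0.80 to -0.26, limma adjusted p = 0.0392), and for the mean, at -0.46 (limma adjusted p = 0.0428). It was at 6.52 and 6.38 with siRNA 1, at 6.17 and 6.46 with siRNA 2 and at 6.78 and 6.91 with control siRNA, all 4 arrays of the MYEOV siRNAs being below control. Its ligand LIF had 0.05 with either siRNA. TYK2, a Janus kinase of cytokine receptors, fell with siRNA 2, at -0.39 (limma adjusted p = 0.0378), and was higher with siRNA 1 than with siRNA 2 by 0.35 (limma adjusted p = 0.0427), with 6.90 and 6.72 with siRNA 1, 6.46 and 6.46 with siRNA 2 and 6.83 and 6.87 with control siRNA. IL6R, the receptor of interleukin 6, was lower with siRNA 1 than with siRNA 2, at -0.78 (interval -1.22 to -0.34, limma adjusted p = 0.0464), with 7.17 and 6.64 with siRNA 1, 7.85 and 7.52 with siRNA 2 and 7.38 and 7.18 with control siRNA. The calls of these receptor and signalling genes were lost with all genes tested and with some single arrays left out. Fitting only the arrays compared also lost LIFR with siRNA 2 (limma adjusted p = 0.0651), TYK2 between the siRNAs (0.0661) and IL6R (0.0735), and array quality weights lost LIFR for the mean (0.0590). The difference of IL6R was -0.51 without siRNA 1 replicate 2 and -1.04 without siRNA 1 replicate 1. Over the alternatives the limma adjusted p reached 0.192 and 0.200 for LIFR, 0.204 and 0.202 for TYK2 and 0.195 for IL6R.

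**Figure D3:**
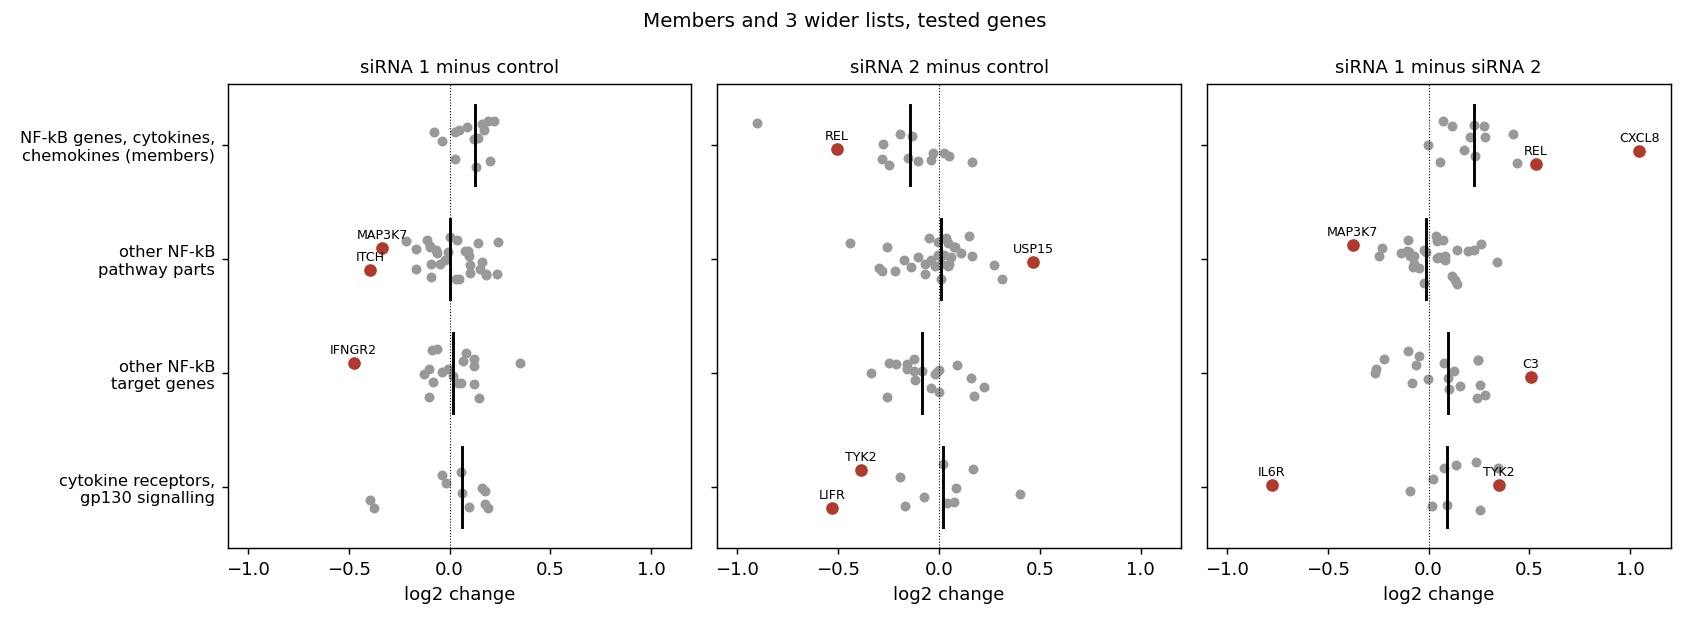
Log2 change of the tested members and of 3 wider lists in the 3 comparisons named above the panels. Each point is a gene, spread vertically for legibility, red points with names are called, and black bars are list medians, which for the members are 0.13, -0.15 and 0.23 from left to right.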

How the data were processed

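The values are log2 signals as deposited, and the submitters' processing notes give RMA as the method, without a version. RMA takes off background, brings the arrays to one distribution and combines the probes of each transcript, and it compresses changes of dim genes. Of 53617 rows 16098 had 1 gene symbol in the platform annotation, 0 had several and 37519 were unnamed. The gene identifiers of all 16098 named rows were found in RefSeq for GRCh38.p14. For the 779 genes with several rows the row with the highest mean was used.

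Linear models were fitted to 6 arrays in 3 groups by lmFit and eBayes (limma 3.58.1 under R 4.3.3), which left 3 residual degrees of freedom beside 4.09 from the prior. Changes are siRNA minus control or siRNA 1 minus siRNA 2. For a single gene the exact permutation test has a smallest p of 0.333 with 2 arrays in each group, so each call depends on the spread that limma borrows from other genes. The fitting step was tested on simulated data. Every member and MYEOV could be named, and of each wider list the called genes and the 4 largest mean changes per direction. The members and lists were chosen with earlier results of these data known. Alternatives were 2 other filters, every row or the mean of rows per gene, quantile normalization, median centring, fitting only the groups compared, a block for the replicate number, array weights, a trend and robust prior, and each array left out. Levels of different genes are not compared, since their probes differ. Figures were drawn with matplotlib 3.10.9.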

Additional observations from a re-analysis of the deposited data

Results flagged for a closer look

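Differences between the siRNAs were looked for in the 14 tested members and the 61 tested genes of the wider lists. Of these, 6 were called by the test of siRNA 1 against siRNA 2 itself (limma, Benjamini-Hochberg adjusted p under 0.05 over all genes tested). The share called among all 7442 tested genes was 9.15%, and the count of 6 is close to that background. Among members REL was higher with siRNA 1 by 0.53 and CXCL8 by 1.04. Of the wider lists C3 was higher with siRNA 1 by 0.51 and TYK2 by 0.35, and MAP3K7 and IL6R were lower with siRNA 1, at -0.38 and -0.78. Of the dim members, CXCL3 lay above the control mean on both siRNA 1 arrays and below it on both siRNA 2 arrays, with a difference between the siRNAs of 0.64, and TNF showed the opposite, at -0.20. With all genes tested, these differences of CXCL3 and TNF were not called (limma adjusted p = 0.341 and 0.603). The control arrays of CXCL3, at 5.99 and 5.18, span both siRNA 1 arrays. Those of TNF, at 4.37 and 4.01, span both siRNA 2 arrays.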

How the results depend on the processing

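With all genes tested, 0 members were called with siRNA 2 against control and 0 between the siRNAs, against 1 and 2 with the filter at the median. The share of all tested genes called, siRNA 2 against control, was then 0.934%, against 6.83%, and the share of all tested genes called, siRNA 1 against siRNA 2, was 1.31%, against 9.15%. The trend and robust prior called 1 member with siRNA 1 (CXCL5), 2 with siRNA 2 (REL and CXCL8) and 4 between the siRNAs (CXCL5, CXCL8, REL and RELB). With each array left out in turn, 0 to 1 members were called with siRNA 2, 0 to 2 between the siRNAs, and 0 with siRNA 1 or the mean of both. The 75th percentile filter, which leaves out CXCL8, called CXCL5 (limma adjusted p = 0.0285) and REL between the siRNAs. The array numbers are shared between groups, but the labels do not say that they pair arrays. Deviations of same-numbered arrays correlated at 0.265, 0.205 and 0.251 for the 3 pairs of groups. With the replicate block 0 members were called with siRNA 1, 2 with siRNA 2 (REL and CXCL8), 1 for the mean (CXCL8) and 4 between the siRNAs (CXCL8, PTGS2, REL and RELB). Of the wider genes named, the replicate block also called IL6R with siRNA 2 against control (limma adjusted p = 0.0481).

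Of 862 recomputed changes of the 14 tested members, 810 kept their sign and their side of the threshold, 31 uncalled ones took another sign without being called, 12 lost a call, 9 gained one and 0 called ones reversed. The causes were not tested. With 2 arrays per group, a change whose interval holds 0 cannot be told from no change, and RMA understates changes of dim genes.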
